A study of Mus musculus with 4 samples.

Results

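The nuclei described here were those of Sst and Pvalb class interneurons, 266 of 24446 nuclei that met the limits on barcodes in 4 brain libraries. They were selected on their own UMI counts (unique molecular identifiers, each standing for 1 captured RNA molecule). A barcode was kept with at least 1000 UMIs, 200 to 2500 genes and at most 10% of UMIs from mitochondrial genes. A kept nucleus was a member with at least 2 UMIs of Gad1 and Gad2, which make GABA, at most 2 UMIs of Adarb2, at most 1 UMI of Rarb and Rgs9, and a class signal. The class signal was at least 2 UMIs over Lhx6, Sst, Pvalb, Eya4 and Sox6 from at least 2 of these 5 genes, or at least 2 UMIs of Sst or of Pvalb. PE-low EV libraries 1 and 2 held 95 and 99 members, and PE-high EV libraries 1 and 2 held 29 and 43.

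The libraries came from frozen brain sections, labelled as whole brain nuclei, of 5XFAD mice that were 7 to 10 weeks old at injection per the series' design and female per the study. All 4 libraries share this genotype, in which mutant human transgenes, APP among them, are driven by the neuronal Thy1 promoter. Both groups received an intravenous injection of exosome-enriched extracellular vesicles (EVs), which were rebuilt from the lipids of adipose EVs and carried little phosphatidylethanolamine (PE) in the PE-low EV group and more of it in the PE-high EV group. Each group had 2 libraries, each pooled from 2 mice per the study, so the library was the replicate (n = 2) and a p-value measures only the spread between these pools.

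Interneurons of this class arise in the medial ganglionic eminence of the embryo under the homeobox gene Lhx6, and they release GABA onto other neurons of cortex, hippocampus and striatum. Those that make somatostatin mostly inhibit distal dendrites. Those that make parvalbumin fire fast and inhibit cell bodies and initial segments of axons, and many of them carry a perineuronal net.

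The 4 libraries held 41470611, 43272337, 32515094 and 29472021 UMIs over all barcodes. The members held 272383 and 331014 UMIs in the PE-low EV libraries and 64058 and 97027 in the PE-high EV libraries. A member had a median of 2731 and 3347 UMIs in the PE-low EV libraries and of 2251 and 2088 in the PE-high EV libraries, so both the number and the depth of the nuclei were lower in both PE-high EV libraries. Over all kept nuclei the medians were 2121, 2652, 1696.5 and 1711 UMIs in the same order. No barcode was a member in 2 libraries, and any 2 libraries shared between 5 and 17 kept barcodes.

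Of the 266 members, 247 met the rule through 2 or more of the 5 class genes, 16 only through Sst and 3 only through Pvalb, and 82 held 3 or more of these genes. Sst was detected in 149 members, Pvalb in 67, both in 14 and neither in 64. The limits left many members near the edge, since 141 of them had exactly 2 UMIs of Gad1 and Gad2. Just inside that limit, members held Kcnmb2 at 708 and Nxph1 at 2340 CPM (counts per 1000000, here scaled to all UMIs of the nuclei named), and the 328 nuclei just outside, with 1 such UMI and all other limits met, held 488 and 1914 CPM. At the class limit, the 53 members with exactly 2 class UMIs held Kcnmb2 at 624 CPM and the 236 nuclei with 1 class UMI held 324 CPM. These 2 genes are not in the rule. The Adarb2 limit had 3 members just inside and 4 nuclei just outside, and the limit on Rarb and Rgs9 had 53 inside and 6 outside.

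Genes that the rule did not use were compared with those of 3 other neuron classes gated from the same libraries: 375 nuclei of the Adarb2 class (the other large class of cortical interneurons, with Vip and Lamp5 cells), 1489 excitatory nuclei and 3879 striatal projection neurons. The Adarb2 class needed at least 2 UMIs of Gad1 and Gad2, at least 3 of Adarb2 and at most 1 over the 5 class genes. Excitatory nuclei needed at least 2 UMIs of Slc17a7 and none of Gad1 or Gad2. Both classes had at most 1 UMI of Rarb and Rgs9. Striatal projection neurons needed at least 3 of these and none of Slc17a7. As all nuclei were chosen on RNA counts, the Adarb2 class also on the class genes of the members, these levels are a description with no test. Kcnmb2 (chr3:31902507-32200180 on GRCm38, plus strand), an auxiliary subunit of large-conductance potassium channels, stood at 543, 870, 702 and 670 CPM in PE-low EV libraries 1 and 2 and PE-high EV libraries 1 and 2. All 4 values lay above the Adarb2 class, with 447 CPM over its libraries, and far above excitatory nuclei at 10.4 CPM and striatal projection neurons at 9.91 CPM. Nxph1, which encodes a secreted ligand of neurexins, stood at 2239, 2293, 1983 and 2608 CPM in members, against 1047 CPM in the Adarb2 class and 49.2 and 45.0 CPM in the other 2 classes. Satb1, a chromatin organiser of maturing interneurons, was at 283, 245, 140 and 278 CPM in members, against 29.0 CPM in the Adarb2 class, 101 CPM in excitatory nuclei and 25.5 CPM in striatal projection neurons. PE-high EV library 1 was the low one for Satb1, from 9 UMIs. The kainate receptor gene Grik3 was at 178 CPM in members and 65.8 CPM in the Adarb2 class.

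**Figure D1:**
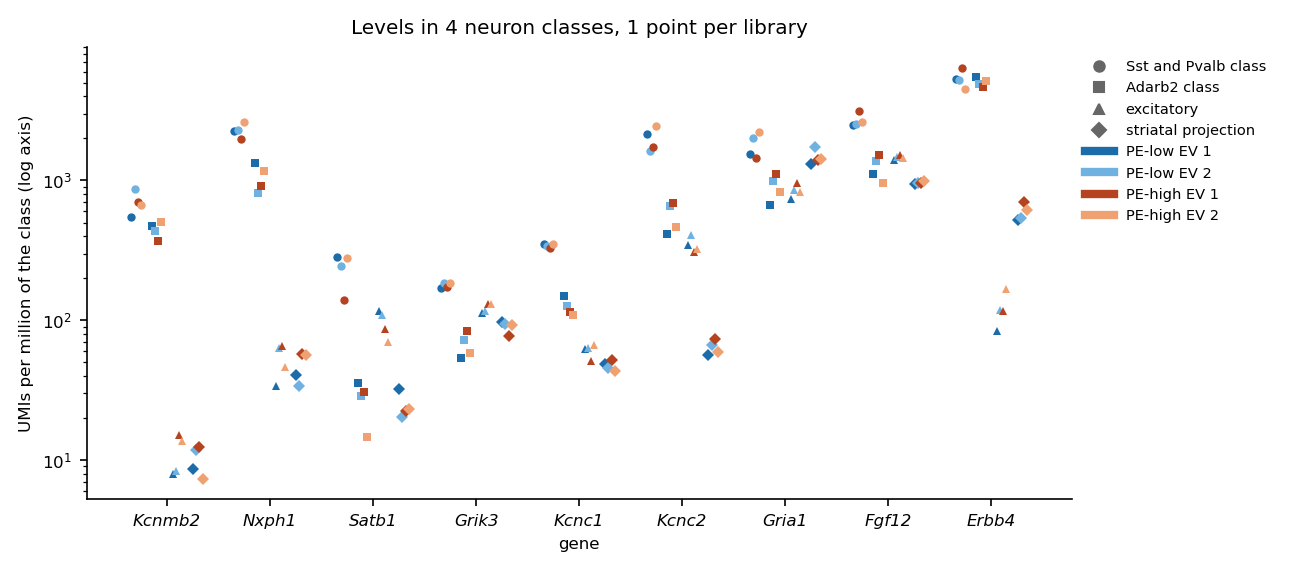
Levels of 9 genes that were not used to choose the nuclei, in CPM on a log axis, with 1 point per library (colour) and neuron class (shape). Kcnmb2, Nxph1, Satb1, Grik3, Kcnc1, Kcnc2 and Fgf12 are higher in the Sst and Pvalb class than in the Adarb2 class in all 4 libraries, and Erbb4 is alike in both interneuron classes.

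Levels of 2 potassium channel genes known from fast firing, Kcnc1 and Kcnc2, were higher than in the Adarb2 class in 4 of 4 libraries. This does not hold for every channel of the subfamily, as Kcnc4 was higher in 1 of 4. Kcnc1 was at 352, 341, 328 and 350 CPM in members of the 4 libraries, with a pooled level 2.67 times that of the Adarb2 class and 5.62 times that of excitatory nuclei. Kcnc2, a channel of the same subfamily, was at 2159, 1634, 1733 and 2453 CPM, with a pooled level 3.47 times that of the Adarb2 class and 30.8 times that of striatal projection neurons. Fgf12, a modulator of sodium channels, was 2.06 times and the AMPA receptor gene Gria1 2.07 times the Adarb2 level, each higher in members in 4 of 4 libraries. Among related genes, Fgf13 was higher in members in 0, Fgf14 in 1 and the AMPA receptor gene Gria2 in 1 of 4 libraries. The AMPA receptor genes Gria3 and Gria4 were higher in 4 of 4. Erbb4, the neuregulin receptor that both interneuron classes carry, was at 5270 CPM in members and 5097 CPM in the Adarb2 class and was higher in members in 2 of 4 libraries. It was at 114 CPM in excitatory nuclei. Il1rapl2, an adhesion receptor of synapses, was 8.17 times its level in the Adarb2 class.

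The genes of the rule were as the rule requires. Sox6, a transcription factor of the lineage, was at 885, 870, 859 and 825 CPM, Lhx6 at 84.4, 63.4, 78.1 and 103 CPM, and Eya4, a transcriptional coactivator, at 272, 296, 515 and 381 CPM in the 4 libraries. Sst (chr16:23889573-23890958, minus strand) was at 408, 483, 312 and 649 CPM and Pvalb (chr15:78191114-78206400, minus strand) at 117, 106, 125 and 113 CPM. The PE-high EV libraries gave the lowest and the highest value of Sst, and the 2 groups overlapped for both genes. Gad1 was at 534 and Gad2 at 474 CPM over all members. Adarb2, Rarb and Rgs9, which the rule limits, were at 23.5, 45.8 and 23.5 CPM. Nkx2-1, which marks the same lineage in the embryo, had 1 UMI over all members, and Slc32a1, the vesicular GABA transporter, had 56.

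Free RNA was high for the peptide genes, which bears on a single UMI of Sst. In barcodes with 200 to under 500 UMIs, of which there were between 42775 and 59727 a library, Sst stood at 487 CPM and Pvalb at 69.4 CPM, against 463 and 112 CPM in members. Eya4, Kcnmb2 and Sox6 were low there, at 4.60, 9.04 and 26.3 CPM. Members with a Sst UMI made up 56.8%, 59.6%, 44.8% and 53.5% of the members in the 4 libraries, against 14.2%, 21.2%, 15.5% and 9.66% of excitatory nuclei, whose median depths were 2830, 3724.5, 2171 and 2302 UMIs. After thinning of each nucleus to 1000 UMIs the shares were 36.8%, 37.4%, 31.0% and 37.2% in members and 4.38%, 6.33%, 7.57% and 3.43% in excitatory nuclei. Sst is a gene of the rule, so the higher share in members follows from the choice of nuclei, with and without thinning, and the part of free RNA in it was not tested.

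Markers of other cell types were searched in the members as lists. Of 10 markers of the Adarb2 class, Htr3a and Crispld2 had no UMI, and the most abundant was Cnr1, the cannabinoid receptor, with 51 UMIs. The list summed to 149 CPM in members and 8146 CPM in the Adarb2 class, of which Adarb2 itself, which the rule limits and which gates that class, gave 7380 CPM. Of 10 markers of excitatory neurons the most abundant was Camk2a with 279 UMIs, Slc17a7 had 43 UMIs, and the list summed to 863 CPM in members, 857 CPM in the Adarb2 class, 2770 CPM in excitatory nuclei and 3246 CPM in barcodes of 200 to under 500 UMIs. Pde10a led the 10 markers of striatal projection neurons with 698 UMIs, and this list summed to 1203 CPM in members and 6707 CPM in striatal projection neurons. Rarb and Rgs9, which set these nuclei apart by the rule, gave 1548 and 931 CPM of the latter.

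Among 6 markers of Purkinje cells, Pcp2 and Ppp1r17 had no UMI and Itpr1, which many neurons express, had 224. Of 12 markers of other subcortical inhibitory neurons, Otx2, Gata3 and Th had none, and Meis2 led with 114 UMIs. The microglial markers Cd74 and C3 and the endothelial markers Pecam1, Cdh5 and Mecom had none. The 7 microglial markers summed to 77 UMIs, the 6 endothelial markers to 6 UMIs, led by Flt1 with 4, and the 5 markers of oligodendrocyte precursors to 24 UMIs, led by Olig1 with 10. The 7 astrocyte markers summed to 770 CPM in members and 2468 CPM in barcodes of 200 to under 500 UMIs, led by Slc1a2 with 314 UMIs. The share of members with at least 3 UMIs over a set of 9 genes of excitatory, glial and vascular cells was 41.1%, 48.5%, 13.8% and 37.2% in the 4 libraries, and it was lowest in PE-high EV library 1.

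Members were divided by their peptide and calcium-binding genes to see what varies within the class. The Sst side, with at least 2 UMIs of Sst and more than of Pvalb, held 24, 34, 5 and 13 nuclei in the 4 libraries. The Pvalb side, with at least 2 UMIs of Pvalb and more than of Sst, held 7, 7, 0 and 2 nuclei. The remaining 174 members had too few UMIs of either gene. The sides were pooled over libraries, and their levels are a description with no test, since the division used the same counts.

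Of the genes known from Sst interneurons, several beside Sst had higher levels on the Sst side, and others were hardly detected. Grin3a, a glutamate receptor subunit, was at 666 CPM on the Sst side from 143 UMIs and had 1 UMI on the Pvalb side. Reln, the secreted protein reelin, was at 573 CPM from 123 UMIs and also had 1 UMI on the Pvalb side. Npy, a peptide that many Sst cells release with somatostatin, was at 429 and 56.1 CPM on the Sst and Pvalb sides. Crhbp, Elfn1 and Nos1 had 28, 23 and 14 UMIs on the Sst side and none on the Pvalb side. Chodl, which marks the rare long-range Sst cells, had 2 UMIs over all members, and Chrna2 had none.

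Of the genes known from Pvalb interneurons, several had higher levels on the Pvalb side, from few nuclei, and others did not. Syt2, the fast calcium sensor of their terminals, was at 299 CPM on the Pvalb side and 18.6 CPM on the Sst side. Kcnc1 was at 599 and 149 CPM, Ppargc1a, a regulator of mitochondrial genes, at 356 and 140 CPM, and Erbb4 at 6418 and 2246 CPM. Acan, the core protein of perineuronal nets, had 5 UMIs on the Pvalb side and 1 on the Sst side. Kcnc2 was at 1497 and 1575 CPM and Gria4 at 1534 and 1347 CPM, so these 2 genes of the same list were close on both sides. Vipr2, known from chandelier cells, had no UMI in any member.

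Across all genes, 854 had at least 50 UMIs over both sides. In the 3 libraries that held both sides, 163 of these were higher on the Pvalb side each time and 184 on the Sst side. The 8 leading genes of the Pvalb side were Tmem108, Atrnl1, Lrrc4c, Kcnc1, Fmn1, Btbd11, Sgcz and Runx2. Tmem108 was at 1272 CPM on the Pvalb side and 126 CPM on the Sst side, a ratio of 10.1. Lrrc4c, a netrin-G ligand of synapses, was at 5520 and 1235 CPM, a ratio of 4.47, and Sgcz, which encodes zeta-sarcoglycan, at 3144 and 858 CPM, a ratio of 3.67. The 8 of the Sst side were Sst itself, Synpr, Trhde, Grin3a, Ralyl, Reln, Dcc and Pde1a. Synpr, a synaptic vesicle protein, and Trhde, an enzyme that degrades a releasing hormone, had no UMI on the Pvalb side and were at least 13.8-fold and 13.0-fold higher on the Sst side, taking 3 UMIs over the Pvalb side as the limit. Dcc, the netrin receptor, was at 848 CPM on the Sst side and 93.6 CPM on the Pvalb side. The rest of the members lay between the sides for Kcnc1 at 403, Grin3a at 218, Reln at 183 and Syt2 at 117 CPM. For Erbb4 they were at 6454 CPM, close to the 6418 CPM of the Pvalb side. Sox6 was at 941 CPM in them against 811 CPM on the Sst side and 430 CPM on the Pvalb side. Sox6 is a gene of the rule, and these members entered through 2 or more class genes. Their level of Sox6 is thus set in part by the choice of nuclei.

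**Figure D2:**
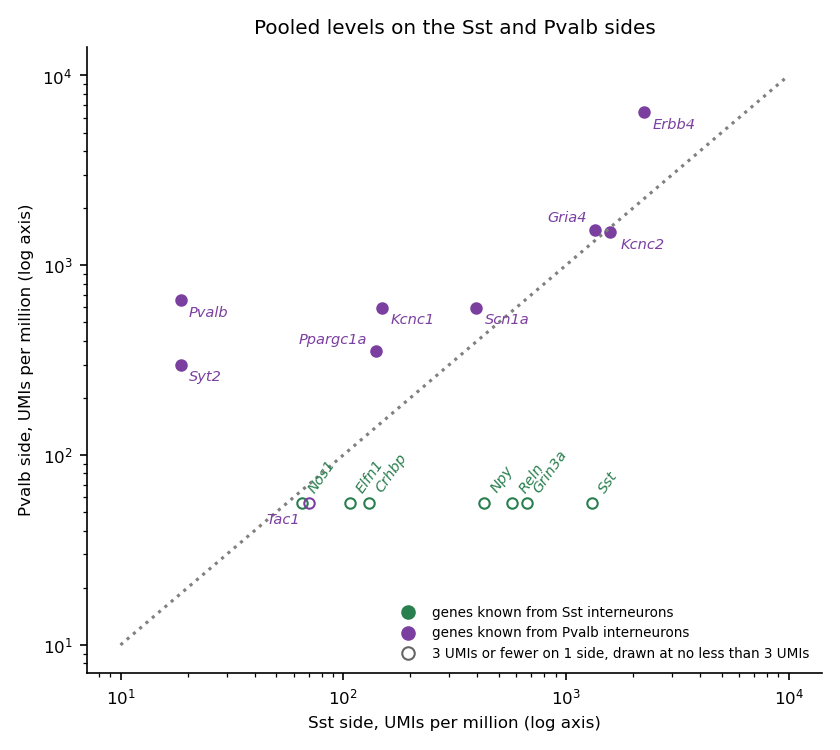
Pooled levels of genes known from Sst and from Pvalb interneurons on the Sst side (horizontal) and the Pvalb side (vertical) of the members, in CPM on log axes, for genes named in the text with at least 10 UMIs over both sides. Open circles had 3 UMIs or fewer on 1 side and are drawn at no less than 3 UMIs. The open green circles lie right of the dotted line of equal levels, Syt2 and Kcnc1 lie left of it, and Kcnc2 lies on it.

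The first comparison between the treatments asked whether the class held a different share of nuclei. Members made up 1.36% of kept nuclei in PE-low EV library 1 (95% Wilson interval 1.12% to 1.66%) and 1.72% in library 2 (1.41% to 2.09%), against 0.512% (0.357% to 0.734%) and 0.710% (0.528% to 0.955%) in PE-high EV libraries 1 and 2. The intervals cover counting error only. The mean share was 1.54% ± 0.252 (SD, n = 2) with PE-low EVs and 0.611% ± 0.140 (SD, n = 2) with PE-high EVs, and the groups did not overlap. An exact two-sided permutation test gave p = 0.333, the smallest that 2 against 2 libraries allow. Depth was lower in both PE-high EV libraries as well. When each nucleus was thinned to 1000 UMIs and the rule applied again, 13, 16, 6 and 13 members remained, shares of 0.187%, 0.278%, 0.106% and 0.215%, and the groups overlapped (exact p = 0.667). The ratio of the mean shares, PE-high over PE-low, was 0.396 before and 0.690 after thinning. With so few members left, the part of depth in the lower share cannot be told from this.

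**Figure D3:**
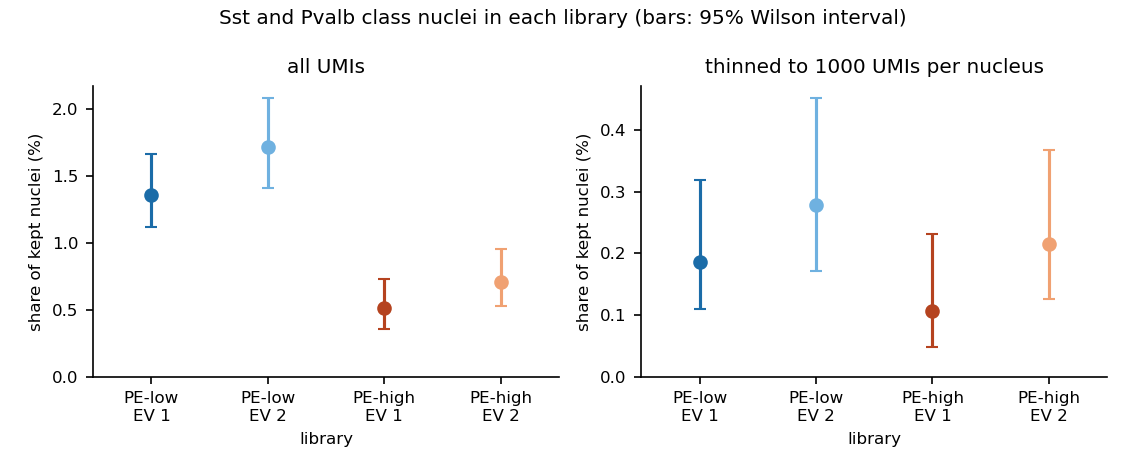
Share of kept nuclei that were Sst and Pvalb class members in each of the 4 libraries, in percent, with all UMIs (left) and after thinning to 1000 UMIs per nucleus (right). Bars are 95% Wilson intervals, which cover counting error only. With all UMIs both PE-high EV libraries lie below both PE-low EV libraries, and after thinning the groups overlap.

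Nuclei with at least 2 UMIs of Gad1 and Gad2, of which the members are a part, made up 14.7% of kept nuclei with PE-low EVs and 8.23% with PE-high EVs, a ratio of 0.561, and 4.42% and 3.87% after thinning. Excitatory nuclei made up 6.68% ± 1.68 (SD, n = 2) and 5.33% ± 0.0458 (SD, n = 2), and 1.53% and 1.67% after thinning. The Adarb2 class made up 1.84% ± 0.247 (SD, n = 2) of kept nuclei with PE-low EVs and 1.22% ± 0.0512 (SD, n = 2) with PE-high EVs, and 0.644% and 0.637% after thinning. Striatal projection neurons made up 15.7% ± 3.79 (SD, n = 2) with PE-low EVs and 15.7% ± 0.780 (SD, n = 2) with PE-high EVs. After thinning they made up 7.51% and 9.12%. Per 100 nuclei of the Adarb2 class there were 81.9, 85.3, 43.3 and 56.6 members in the 4 libraries, and after thinning 28.9, 43.2, 18.8 and 30.2. The loss or gain of nuclei in isolation and a change in the tissue cannot be told apart from these counts. Within the class, the Sst side made up 77.4% and 82.9% of both sides in the PE-low EV libraries and 100% of 5 nuclei and 86.7% of 15 nuclei in the PE-high EV libraries. The rule used Sst and Pvalb too, so these shares are a description. Their difference in means, 13.2 percentage points, turned to -2.38 at a limit of 3% mitochondrial UMIs. After thinning no library held a Pvalb side nucleus, so the difference of 0 there was fixed and nothing is read from it. The Wilson interval of the value from 5 nuclei reached down to 56.6%.

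The second comparison asked which genes differed between PE-high EV and PE-low EV members. UMIs were summed over the members of each library and 3766 genes were tested with edgeR's quasi-likelihood test, with adjustment by Benjamini-Hochberg and a threshold of 0.1. No gene passed (0% of those tested), and the smallest adjusted p was 0.371. At an unadjusted p under 0.05 there were 170 genes, 75 higher and 95 lower with PE-high EVs, or 4.51% of those tested. DESeq2 also called 0 genes, with 22 at an unadjusted p under 0.05. The median log2 fold change of all tested genes was 0.00 and the median standard error 0.43. Fold changes as large as that of Hs3st4, at -1.84, did not pass in this fit. The values of the 2 libraries of each group did not overlap for 16.6% of tested genes in the higher and 18.5% in the lower direction.

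**Figure D4:**
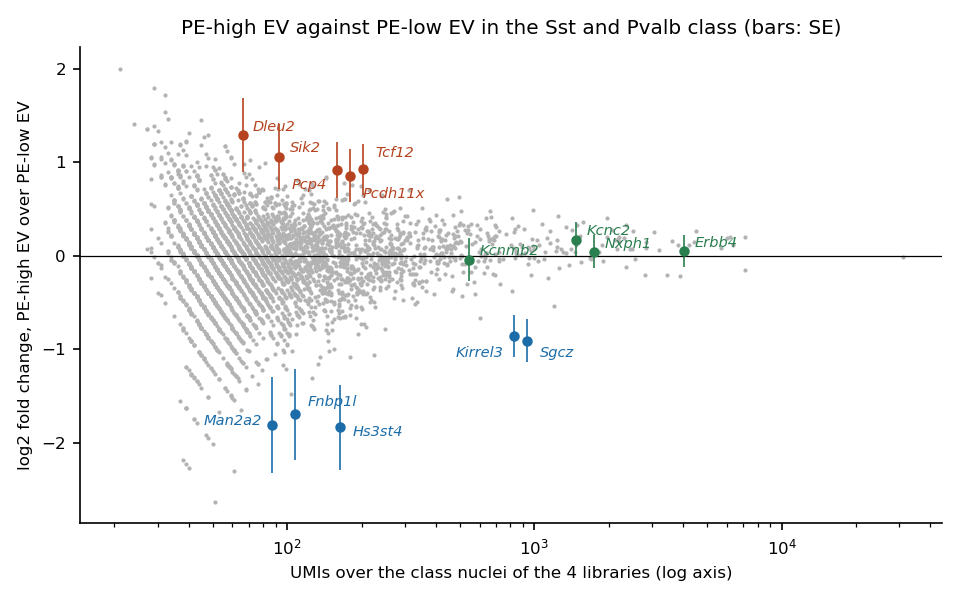
The log2 fold change of PE-high EV over PE-low EV members against the UMIs of each of the 3766 tested genes (log axis). Red and blue mark the 5 genes with the smallest unadjusted p in each direction, green marks 4 abundant genes described above, and bars are standard errors. None passed the adjusted threshold of 0.1, and Kcnc2, Nxph1, Kcnmb2 and Erbb4 lie near 0.

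The genes compared with other classes above were also followed between the treatments. The log2 fold change was -0.04 (SE 0.23) for Kcnmb2, 0.04 (SE 0.18) for Nxph1, -0.23 (SE 0.31) for Satb1, 0.05 (SE 0.17) for Erbb4 and 0.17 (SE 0.19) for Kcnc2, and the groups overlapped for each of the 5. Eya4, whose UMIs admit a nucleus to the class, was higher in both PE-high EV libraries, at 515 and 381 CPM against 272 and 296 CPM. As the rule used it, and members were shallower in those libraries, this is a description with no test. The whole list of 11 class markers includes genes of the rule, so nothing is read from its median.

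The 5 genes with the smallest unadjusted p among the lower ones were Hs3st4, Sgcz, Kirrel3, Man2a2 and Fnbp1l. None passed the threshold. Hs3st4 (chr7:123982869-124398989, plus strand), a heparan sulfate sulfotransferase, had 41, 112, 6 and 5 UMIs in the 4 libraries, or 151 and 338 CPM after PE-low EVs and 93.7 and 51.5 CPM after PE-high EVs. The log2 fold change came to -1.84 (SE 0.45, edgeR adjusted p = 0.371). Its UMIs lay in few nuclei, with 13 of 95, 16 of 99, 2 of 29 and 3 of 43 members holding any. In PE-low EV library 2 the 5 richest nuclei held 86 of the 112. Hs3st4 was higher on the Pvalb side, at 1048 CPM against 154 CPM on the Sst side. All 56 UMIs of the Pvalb side came from the 7 such nuclei of PE-low EV library 2, and without that side Hs3st4 was at 163, 184, 93.7 and 55.5 CPM in the 4 libraries.

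Sgcz (chr8:37522298-38661508, minus strand) was at 1032, 1628, 484 and 876 CPM in the 4 libraries, from 281, 539, 31 and 85 UMIs (log2 fold change -0.91, SE 0.23, edgeR adjusted p = 0.371). It is also among the leading genes of the Pvalb side, and without those nuclei it was at 880, 1431, 484 and 877 CPM. Both PE-high EV libraries stayed below both PE-low EV libraries, the second one by a small margin. Kirrel3 (chr9:34485894-35036716, plus strand), an adhesion molecule that binds itself between cells, was at 1054 and 1320 CPM and at 781 and 546 CPM in the PE-low and PE-high EV libraries (log2 fold change -0.86, SE 0.22, edgeR adjusted p = 0.371). Unlike Sgcz it was higher on the Sst side, at 1230 against 505 CPM, and it was detected in 58.9%, 64.6%, 55.2% and 51.2% of members. Man2a2, a mannosidase of the Golgi, had 34, 47, 2 and 4 UMIs, and Fnbp1l, which shapes membranes and actin, had 42, 58, 6 and 2 UMIs. For these last 2 genes the PE-high EV values rest on fewer than 10 UMIs each.

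**Figure D5:**
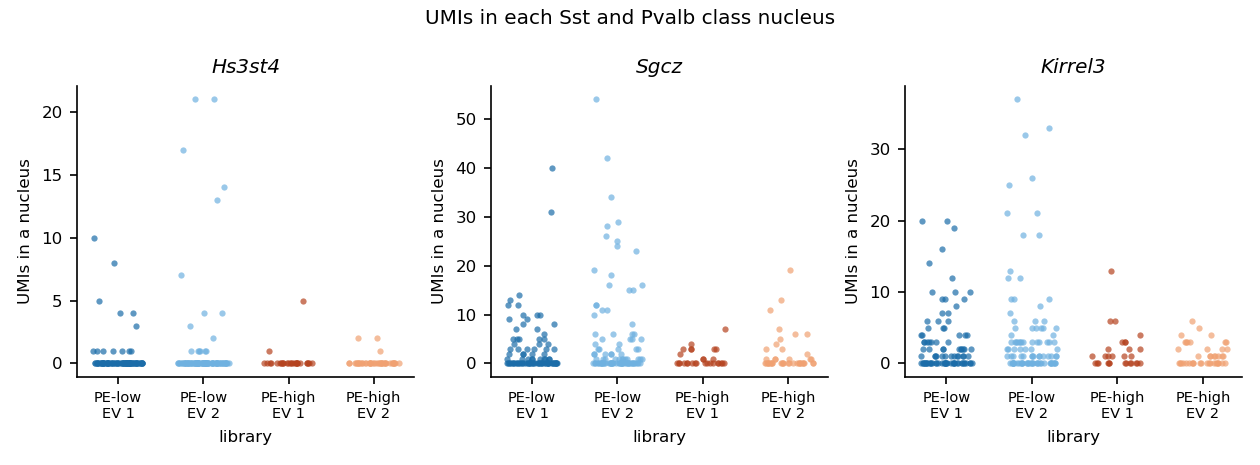
UMIs of Hs3st4, Sgcz and Kirrel3 in each member nucleus (1 point each, spread sideways at random) in the 4 libraries. The UMIs of Hs3st4 lie in few nuclei, with up to 21 UMIs in 1 nucleus of PE-low EV library 2, while Sgcz and Kirrel3 are spread over more nuclei.

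The 5 genes with the smallest unadjusted p among the higher ones were Tcf12, Dleu2, Pcp4, Pcdh11x and Sik2, and none of these passed either. Tcf12 (chr9:71842688-72111871, minus strand), a helix-loop-helix transcription factor, was at 257 and 196 CPM with PE-low EVs and 453 and 402 CPM with PE-high EVs (log2 fold change 0.92, SE 0.27, edgeR adjusted p = 0.721). It had a UMI in 62.1% and 53.5% of the PE-high EV members and in 42.1% and 46.5% of the deeper PE-low EV members. Dleu2, a long non-coding RNA, was at 77.1 and 57.4 CPM with PE-low EVs and 203 and 134 CPM with PE-high EVs, from 21, 19, 13 and 13 UMIs. Pcp4, a calmodulin-binding peptide, was at 217 and 142 CPM against 406 and 278 CPM. In barcodes of 200 to under 500 UMIs Pcp4 stood at 1560 CPM, above its level in members, and there it was at 1652, 1300, 1634 and 1727 CPM in the 4 libraries. Pcdh11x, a protocadherin, rests on 62, 59, 18 and 41 UMIs and the kinase gene Sik2 on 23, 37, 15 and 18.

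Function lists gave no called gene in either direction, and their medians stand beside a median of 0.00 over all tested genes. Of 25 genes of voltage-gated and calcium-activated potassium channels 22 were tested, and their median log2 fold change was 0.09. The groups did not overlap for 4 of these in the higher and 1 in the lower direction, against the 16.6% and 18.5% of all tested genes. Kcnip4 (4086, 3577, 3575 and 5442 CPM), Kcnd2 (1916, 1770, 1639 and 1762 CPM) and Kcnma1 (1190, 1520, 1436 and 1175 CPM) had the most UMIs of this list beside Kcnc2. Of 12 genes of sodium channels and the axon initial segment 11 were tested (median -0.05), led by Fgf14, Fgf12, Ank3 and Scn1a. Of 18 glutamate receptor genes 17 were tested (median 0.07, 13 of them positive, beside 50.3% of all tested genes), led by Gria1, Grik2, Gria4 and Grm5. Of 12 GABA-A receptor subunits 9 were tested (median 0.10), with Gabrg3, Gabrb1 and Gabrb2 among the most abundant. Of 18 synaptic adhesion genes 16 were tested (median 0.12, 12 of them positive), led by Nrxn3, Cntnap2, Erbb4 and Nrg3.

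Genes of the GABA phenotype were also without a call, and these lists hold genes of the rule (Gad1, Gad2, Lhx6, Sox6, Sst and Pvalb), whose levels the choice of nuclei sets in part. Of 8 genes of GABA synthesis, loading and uptake 6 were tested (median 0.20), with Gad1, Gad2 and Abat, which breaks GABA down among the most abundant. Of 16 transcription factors of the lineage 7 were tested (median 0.04), led by Mef2c, at 995, 906, 921 and 886 CPM, Sox6, Zeb2 and Satb1. Of 14 neuropeptides and their co-markers 6 were tested (median 0.23), led by Sst, Npy, Cck and Tac1, and Cck and Tac1 stood at 1150 and 376 CPM in barcodes of 200 to under 500 UMIs against 147 and 69.3 CPM in members. Of 15 genes known from Sst interneurons 8 were tested (median 0.16) and of 19 known from Pvalb interneurons 14 were tested (median 0.10). Tnr and Ptprz1 alone of 10 perineuronal net genes were tested, with a median of 0.02. Of 12 immediate early genes none had enough UMIs to be tested, and all 12 summed to 79 UMIs.

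Lists tied to the lipid and to amyloid were small after the filter on low counts. Of 12 genes of PE metabolism 4 were tested, with a median log2 fold change of -0.38, led by Etnk1, Gpcpd1, Pcyt2 and Selenoi. Etnk1, the kinase that opens the CDP-ethanolamine route to PE, was at 191, 239, 78.1 and 124 CPM in the 4 libraries, from 52, 79, 5 and 12 UMIs, and did not pass (log2 fold change -1.02, SE 0.37, edgeR adjusted p = 0.979). Pcyt2, which makes CDP-ethanolamine, was at 69.8, 99.7, 109 and 92.8 CPM. Of 14 P4-type flippase genes, which move PE and phosphatidylserine across membranes, 6 were tested (median 0.15), led by Atp8a2, Atp8a1, Atp11b and Atp9b. Of 12 genes of the amyloid precursor family and its secretases 5 were tested (median -0.08), led by App, Aplp2, Aplp1 and Adam10. App was at 496, 577, 515 and 495 CPM, and whether the counting took in reads of the human transgene was not tested. Of 12 genes of calcium release channels and pumps 7 were tested (median 0.02), led by Ryr2, Atp2b1, Atp2b2 and Atp2a2.

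Of the 16 genes of the unfolded protein response 6 were tested, and none passed. All 6 had a log2 fold change above 0, as did 50.3% of all tested genes, and their median was 0.51. The groups did not overlap for 3 of them in the higher direction, against 16.6% of all tested genes. Canx, a chaperone of the endoplasmic reticulum, was at 117, 124, 78.1 and 186 CPM, Hsp90b1 at 99.1, 133, 187 and 113 CPM, Sel1l at 106, 81.6, 78.1 and 155 CPM and Atf6, a stress sensor, at 77.1, 78.5, 109 and 134 CPM in the 4 libraries. Calr, a calcium-binding chaperone named here after its value was seen, was at 66.1, 54.4, 93.7 and 155 CPM from 18, 18, 6 and 15 UMIs (log2 fold change 1.13, SE 0.43, edgeR adjusted p = 0.979). The whole list summed to 778, 710, 890 and 1144 CPM in members and to 2261 CPM in barcodes of 200 to under 500 UMIs. The part of free RNA in these values was not tested.

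RNA of myelinating cells was lower in the members of both PE-high EV libraries, with no gene called. The 7 oligodendrocyte markers summed to 657, 716, 187 and 474 CPM in the 4 libraries. The 3 that were tested, Mbp and Mobp among them, were lower in both PE-high EV libraries than in both PE-low EV libraries, as were 18.5% of all tested genes, and none passed the threshold. Mbp, of myelin basic protein, was at 165, 278, 78.1 and 134 CPM (log2 fold change -1.0, SE 0.38, edgeR adjusted p = 0.979). In PE-low EV library 2, 1 nucleus held 29 of its 92 UMIs. In barcodes of 200 to under 500 UMIs Mbp was at 1202, 1305, 788 and 917 CPM in the 4 libraries, also lower in both PE-high EV libraries. Its log2 fold change was -0.89 in the Adarb2 class and -0.56 in excitatory nuclei.

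The third comparison asked whether a change differed between these members and another neuron class of the same libraries, as an interaction term between class and treatment in a fit blocked by library. Against the Adarb2 class 4935 genes were tested and 2 passed (0.0405%), and against excitatory nuclei 8530 were tested and 2 passed (0.0234%). Hs3st4 was called in both. It had 54, 46, 29 and 47 UMIs in the Adarb2 class, where its log2 fold change was 0.84, and the change in members was lower by 2.64 on the log2 scale (SE 0.50, edgeR adjusted p = 0.000731). Against excitatory nuclei, where it changed by 0.08, the difference was -1.90 (SE 0.42, edgeR adjusted p = 0.0272). Sgcz was called against excitatory nuclei, with a difference of -1.11 (SE 0.23, edgeR adjusted p = 0.0179), and not against the Adarb2 class, with -1.05 (SE 0.28, edgeR adjusted p = 0.344).

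Col25a1 (chr3:130131501-130599877, plus strand), a membrane collagen known from amyloid plaques, was called against the Adarb2 class and not against excitatory nuclei, where the difference was 0.45 (SE 0.32). In members it was at 187, 227, 250 and 423 CPM in the 4 libraries, and it had 92, 137, 20 and 32 UMIs in the Adarb2 class, where its log2 fold change was -0.88. The difference was 1.63 (SE 0.38, edgeR adjusted p = 0.0623). In PE-high EV library 1 all 16 UMIs of Col25a1 came from 5 nuclei, and in library 2 the 5 richest nuclei held 35 of 41. Col25a1 was not called against the Adarb2 class without the filter on low genes, nor without PE-low EV library 1. Without PE-low EV library 2 neither contrast had a called gene, and without PE-high EV library 1 the contrast with the Adarb2 class had none.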

How the data were processed

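Nuclei of OCT-embedded brain sections were profiled by 10x 3' v3.1 chemistry. Reads were aligned to mm10 and counted by the authors in Cell Ranger 7.1.0, who deposited, for each of the 4 libraries, an unfiltered matrix of UMI counts. The deposited barcode and gene lists hold names and no measurement (unit other). Their own filter allowed 3% mitochondrial UMIs. Here 10% was allowed, doublets were not removed by a caller, and free RNA was not subtracted. Counts were summed per library and class. Genes were kept by filterByExpr, scaled by TMM and tested with edgeR 4.0.16 (R 4.3.3), with DESeq2 1.42.0 as an alternative. The edgeR fit, and not DESeq2, was also run on simulated counts. Shares were compared by exact permutation (scipy 1.17.1). Gene positions are from GENCODE M21 (GRCm38), matched by Ensembl ID.

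The members, gene lists and tests were chosen with earlier results of these data known. Named were the rule and marker genes, the 5 genes with the smallest unadjusted p in each direction (fewer than 5 having passed), the 4 genes of each function list with the most UMIs, and the 8 leading genes of each side. Gm and clone names were passed over, and some genes that the rule names are not reported here. The direction between sides was taken over the 3 libraries that hold both.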

Additional observations from a re-analysis of the deposited data

Results flagged for a closer look

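The changes called as different between neuron classes are the results that stand out. Hs3st4 differed between the members and the Adarb2 class by -2.64 on the log2 scale and between the members and excitatory nuclei by -1.90. Sgcz differed between the members and excitatory nuclei by -1.11, and Col25a1 between the members and the Adarb2 class by 1.63. Each was flagged because the interaction of class and treatment passed an adjusted p of 0.1 in edgeR. Hs3st4 had UMIs in 34 of the 266 members, and 56 of its 164 UMIs came from 7 nuclei of the Pvalb side, all in PE-low EV library 2. Without PE-low EV library 2 neither contrast called a gene. Under the stricter rule the log2 fold change within members was 0.014 for Hs3st4 and -0.60 for Col25a1. Col25a1 was also not called against the Adarb2 class without the filter on low genes, nor without PE-low EV library 1.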

How the results depend on the processing

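Of the alternatives to the comparison within members, DESeq2, scaling to library totals, a threshold of 0.05, a limit of 3% mitochondrial UMIs, no upper limit on genes, at least 500 UMIs, the stricter rule, thinning to 1000 UMIs, and leaving out nuclei with RNA of other classes or PE-low EV library 2 each called 0 genes. No filter on low genes called 3 (Hs3st4, Sgcz and Kirrel3, all lower) and moved the median log2 fold change of all genes to -0.35, and a limit of 5% mitochondrial UMIs called 1 (Kirrel3). Leaving out 1 library at a time, where the lone library of its group is assumed to vary like the other group, gave 0 to 2 calls: Hs3st4 and Sgcz lower without PE-low EV library 1, Sema6d and Ncam2 higher without PE-high EV library 1, and Sgcz lower without PE-high EV library 2. With the replicate number as a block 2 genes were called, Hs3st4 and Sgcz, each with an edgeR adjusted p of 0.0793. Deviations of same-numbered libraries from their group means correlated by 0.02. Counting noise also lowers such a correlation, so whether the numbers pair the samples cannot be told from it.

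The contrast with the Adarb2 class called 4 genes at 3% mitochondrial UMIs, 1 without the filter on low genes and 0 to 2 with 1 library left out. That with excitatory nuclei called 5 genes at 3% mitochondrial UMIs and 0 to 6 with 1 library left out, 0 without PE-low EV library 2, 6 without PE-high EV library 1 and 5 without PE-high EV library 2. With the stricter rule the log2 fold change of Hs3st4 was 0.014 and that of Col25a1 -0.60, and at 3% mitochondrial UMIs that of Pcdh11x was -0.16; the cause was not tested. The difference in the share of the class was below 0 under all 12 alternatives. That of the Sst side, in percentage points, was -2.38 at 3% mitochondrial UMIs, where PE-high EV library 1 held neither side. It was 0 after thinning, where no library held a Pvalb side nucleus. Near-empty barcodes of 20 to 100 UMIs gave Sst at 363 CPM; the range of 200 to under 500 UMIs was added after seeing the data.

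With 29 and 43 nuclei in the PE-high EV libraries, the depth limits all comparisons, and Pvalb side values rest on 16 nuclei.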
